A study of Homo sapiens with 5 samples.

Results

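To describe how matrix-embedded tumour cells express the receptors that bind their matrix, the transcripts of 10 integrin subunits were followed across 5 culture conditions. The subunits were chosen by gene symbol for their part in adhesion to collagen and fibronectin, and all 10 were found among the 27189 genes listed in each library: ITGA1, ITGA2, ITGA3, ITGA5, ITGA6, ITGAV, ITGB1, ITGB3, ITGB4 and ITGB5. The cells were HT1080, a human fibrosarcoma line widely used to study cell migration, and every condition used this line in rat-tail type I collagen at 2 mg per ml for 24 h. Cells seeded at 10 cells per cubic mm received no cytokine (LD), recombinant IL-6 (IL-6), recombinant IL-8 (IL-8) or IL-6 together with IL-8 at a ratio of 5 to 2 (RM, for recombinant mixture). Cells seeded at 50 cells per cubic mm received no cytokine by the label of their library (HD). The general treatment text of the labels, which all libraries share, says that cytokines were given at both densities, so the untreated state of HD rests on its own label. Each condition was sequenced as 1 library, so replicate error is unknown for every value below and no condition could be tested. Intervals are exact 95% intervals that cover the counting of reads only, and not amplification or variation between cultures.

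Integrins are membrane receptors made of an alpha and a beta subunit. The alpha subunit largely sets which matrix protein is bound, and the tail of the beta subunit connects to the actin cytoskeleton through talin, kindlin and other adaptors. Alpha 1 and alpha 2 pair with beta 1 to bind collagen. Alpha 5 with beta 1 is the main fibronectin receptor, and alpha V pairs with beta 3, beta 5 and other beta subunits to bind vitronectin and fibronectin. Alpha 3 and alpha 6 with beta 1, and alpha 6 with beta 4, bind laminins. In collagen gels, integrins let a cell grip and pull on the fibres it moves along.

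The HD library stood apart from the others before any integrin was considered. It held 926376 counted reads, against 5096134 to 7118545 in the libraries at low density, and RNA5-8S5, a ribosomal RNA entry, took 51.5% of them, against 76.9 to 79.6%. Ratios of read shares below are over all counted reads, RNA5-8S5 included. Those that compare HD with another library therefore also carry this difference and come out higher for it. A gene with 3 reads would stand at 3.24 CPM (reads per 1000000 counted reads) in HD and at 0.42 to 0.59 CPM in the others. Of 386 olfactory receptor genes, which fibrosarcoma cells are not known to use, 240 had a read in HD and 14 to 37 in the others. With RNA5-8S5 left out, ribosomal protein genes held 1.83% of HD reads and 7.75 to 9.18% elsewhere. Markers of mesenchymal cells, the lineage of this line, had a read for 9 or 10 of 10 genes in every library, with a summed level of 2503 to 4486 TPM at low density and 678 TPM in HD. TPM is a transcript level per length, as a share of 1000000 transcripts. PTPRC, the pan-leukocyte marker CD45, had 36 reads in HD, 0 in LD and in RM, and 1 or 2 in the single-cytokine libraries. The 5 leukocyte markers summed to 193 TPM in HD against 1.76 to 8.10 TPM at low density, and the 3 endothelial markers to 53.8 TPM against 0.48 to 1.08 TPM. By 1 log2 unit or more, 4 leukocyte markers were higher in HD than in LD. The other, ITGB2, was lower, with 26 reads in LD and 1 in HD. The 5 epithelial markers summed to 629 TPM in HD and 637 to 905 TPM at low density. By 1 log2 unit or more, 3 of them were higher in HD than in LD and 1, KRT8, was lower. CDH1, among the higher ones, had 34 reads in HD and 0 to 6 elsewhere. The part of these library differences in the integrin values was not tested. In bulk libraries, fewer cells and less RNA per cell also cannot be told apart.

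In LD, HT1080 cells expressed 6 of the 10 subunits at 43.0 TPM or more and the other 4 at 2.50 TPM or less. The order of levels was ITGA3 (205 TPM), ITGA5 (156), ITGB5 (141), ITGA2 (82.8), ITGB1 (63.9), ITGA6 (43.0), ITGAV (2.50), ITGB3 (2.01), ITGB4 (0.76) and ITGA1 (0.37). Of the neighbours in this order, only ITGA5 and ITGB5, ITGAV and ITGB3, ITGB3 and ITGB4, and ITGB4 and ITGA1 had overlapping counting intervals. The same 6 subunits led in IL-6, IL-8 and RM. In HD they were joined by ITGA1, which ranked 4 of 10 there after ranking 9 or 10 elsewhere. The 10 subunits together had 4509 reads in LD, 3037 in IL-8, 2999 in IL-6, 3542 in RM and 210 in HD, so a value in HD rests on 5 to 44 reads.

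**Figure D1:**
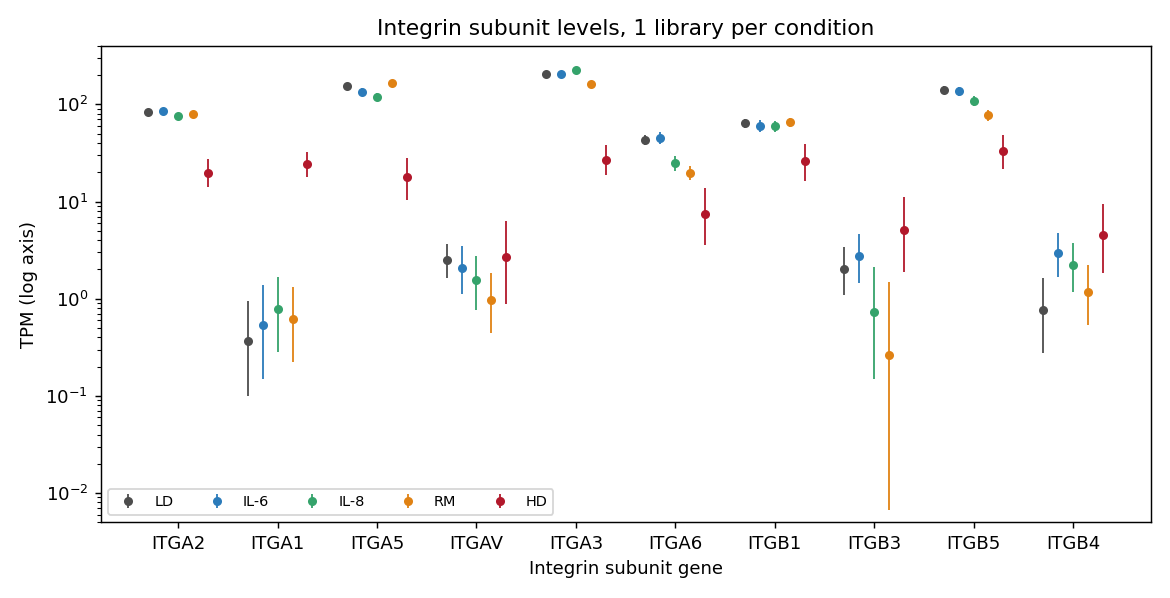
TPM of each integrin subunit (log axis) in the 5 libraries, 1 per condition. Points are the TPM values and bars the exact 95% counting intervals. ITGA1 was at 0.37 to 0.78 TPM in the 4 libraries at low density and at 24.4 TPM in HD, while ITGA2, ITGA3, ITGA5, ITGA6, ITGB1 and ITGB5 were lowest in HD.

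The collagen-binding subunits behaved in opposite ways between the densities. ITGA2, the alpha subunit of the main receptor for fibrillar collagen I, had 82.8 TPM in LD, 76.1 in IL-8, 85.5 in IL-6, 79.3 in RM and 19.9 in HD. The 4 libraries at low density were close together in TPM, and HD lay below all of them. With median-ratio normalization ITGA2 was 0.66 log2 units higher in RM and 0.32 higher in IL-8 than in LD. From LD to RM the read share of ITGA2 changed by a ratio of 0.96 (95% interval 0.87 to 1.05), and from LD to HD by 0.32 (0.22 to 0.44). The log2(TPM + 1) of ITGA2 fell by 2.01 from LD to HD. ITGA1, whose receptor prefers collagen IV and also binds collagen I, had 4 reads in LD, 6 in IL-8, 4 in IL-6, 6 in RM and 44 in HD. On the TPM scale this was 0.37, 0.78, 0.54, 0.61 and 24.4. ITGA1 reached 1 TPM in HD alone, so it entered the comparison through the library in which it was high. Its log2(TPM + 1) was 4.21 higher in HD than in LD, with a ratio of read shares of 84.5 (95% interval 30.8 to 324). Over all 21163 genes with at least 1 TPM in a library the median difference between these libraries was 1.86, and the difference of ITGA1 lay at percentile 85.6 of them. Relative to that median, ITGA1 was 2.35 log2 units higher. A gene that enters through HD alone can only be higher there, so this place was partly set by the filter. In HD its level and that of ITGA2 had overlapping intervals (17.7 to 32.7 TPM and 14.1 to 27.3 TPM).

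ITGA1 and ITGA2 are neighbours. In GENCODE 29 on GRCh38, ITGA1 lies on the plus strand of chromosome 5 from 52787896 to 52959210 and ITGA2 on the same strand from 52989326 to 53094779, with 30115 bases between them. The reads themselves were aligned to hg19, so these positions are matched by symbol. PELO, a gene for a ribosome rescue factor, lies on the same strand within the span of ITGA1, from 52787940 to 52804046, and reads of such overlapping genes can be assigned to either. PELO had 45 reads in LD, 7 in IL-8, 19 in IL-6, 5 in RM and 2 in HD, and 2 reads are too few to give a direction in HD. How reads were shared between PELO and ITGA1 was not tested. PELO was looked at after the values of ITGA1 had been seen. The 250 bases before the RefSeq start of ITGA1 and of ITGA2 (GRCh38.p14) are shown because these adjacent genes of related function differed in opposite directions in HD. The window of ITGA1 also lies directly before the start of PELO at 52787940. Capitals mark GGGCGG, the GC box, on either strand.

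ITGA1 (plus strand, chr5:52787666-52787915): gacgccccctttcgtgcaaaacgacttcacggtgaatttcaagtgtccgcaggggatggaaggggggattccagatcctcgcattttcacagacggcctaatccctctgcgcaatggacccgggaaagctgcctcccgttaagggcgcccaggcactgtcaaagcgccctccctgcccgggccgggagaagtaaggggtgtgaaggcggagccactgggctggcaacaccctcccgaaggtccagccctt

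ITGA2 (plus strand, chr5:52989102-52989351): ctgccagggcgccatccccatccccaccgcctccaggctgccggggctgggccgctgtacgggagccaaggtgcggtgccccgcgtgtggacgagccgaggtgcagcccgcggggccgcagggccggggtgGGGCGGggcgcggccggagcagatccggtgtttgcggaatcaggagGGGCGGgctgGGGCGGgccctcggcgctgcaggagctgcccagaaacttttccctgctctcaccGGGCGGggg

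The window of ITGA2 held 4 GC boxes and that of ITGA1 none, and their GC content was 76.4% and 62.0%. Over all 35116 RefSeq windows of this length, 42.6% held a GC box. The AP-1, STAT and TATA box motifs, also searched on both strands, were in neither window and were in 6.57%, 6.57% and 10.7% of all windows. The AP-1 motif was spelled TGANTCA. The STAT motif was spelled TTCNNNGAA. The TATA box was spelled TATAAA. These are descriptions of the letters in the windows only. Windows were found for 7 of the 10 subunits.

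The fibronectin and vitronectin receptors had an abundant alpha 5 and a scarce alpha V. ITGA5 had 156 TPM in LD, 120 in IL-8, 135 in IL-6, 165 in RM and 17.7 in HD. IL-8 was the lowest of the libraries at low density and RM the highest, with intervals of 110 to 131 TPM and 154 to 176 TPM. Against LD, the ratio of ITGA5 read shares was 0.75 in IL-8 (95% interval 0.67 to 0.83), 0.83 in IL-6 (0.75 to 0.93) and 0.92 in RM (0.83 to 1.01), so a difference of RM from LD was not detectable at this depth. With median-ratio normalization the log2 difference of 0.08 between RM and LD became 0.81. HD lay far below all 4, and ITGA5 fell by 3.07 log2 units from LD to HD, the largest decrease of the 10 subunits on this scale. The ratio of its read shares was 0.15 (0.09 to 0.24).

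ITGAV had 26 reads in LD, 11 in IL-8, 14 in IL-6, 9 in RM and 5 in HD, with TPM values of 2.50, 1.54, 2.07, 0.97 and 2.72. The level was low in all libraries, and of its comparisons with LD only that of RM gave a ratio of read shares whose interval excluded 1 (0.36, 0.15 to 0.79). ITGB3, which pairs with alpha V in the classical vitronectin receptor, had 14 reads in LD, 3 in IL-8, 13 in IL-6, 1 in RM and 6 in HD. Its TPM values were 2.01, 0.73, 2.74, 0.27 and 5.12. LD and IL-6 were the higher pair at low density, and the ratio of read shares between RM and LD was 0.07 (0.0018 to 0.49). ITGB3 fell by 1.25 log2 units from LD to RM, on 15 reads in the pair of libraries.

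ITGB5, the beta subunit of another vitronectin receptor, had the highest TPM of the beta subunits among the 10 in every library. In RM and HD the intervals of ITGB1 (59.0 to 73.2 and 16.4 to 38.9 TPM) overlapped those of ITGB5. ITGB5 had 141 TPM in LD, 109 in IL-8, 136 in IL-6, 77.8 in RM and 33.0 in HD. The intervals of IL-6 and LD overlapped, the TPM of IL-8 and RM was lower, and RM (68.2 to 88.4 TPM) did not overlap IL-8 (95.9 to 123 TPM). The interval of IL-8 overlapped that of IL-6 (122 to 153 TPM). The ratio of read shares against LD was 0.69 (0.59 to 0.80) in IL-8 and 0.51 (0.44 to 0.60) in RM. The log2 difference of -0.85 in RM did not reach the size of 1 unit that was counted as a change. It was -1.06 with drawn-down reads and -0.12 with median-ratio normalization, which put IL-8 at 0.08. From LD to HD, ITGB5 fell by 2.06 log2 units. From RM to HD it fell by 1.21 log2 units on the TPM scale, while the ratio of its read shares was 0.82 with an interval that included 1 (0.52 to 1.23). That ratio counts RNA5-8S5, which took 51.5% of the reads in HD and 79.0% in RM.

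Among the laminin-binding subunits, ITGA6 was lower in both libraries that had received IL-8. ITGA6 had 43.0 TPM in LD, 24.8 in IL-8, 44.9 in IL-6, 19.7 in RM and 7.41 in HD, on 325, 136, 202, 149 and 10 reads. LD and IL-6 formed a higher pair and IL-8 and RM a lower pair. The intervals of the lower pair overlapped (20.8 to 29.3 TPM in IL-8 and 16.7 to 23.1 TPM in RM), and neither overlapped those of LD (38.5 to 48.0 TPM) or IL-6 (39.0 to 51.6 TPM). The ratio of read shares against LD was 0.54 (0.44 to 0.66) in IL-8 and 0.48 (0.39 to 0.58) in RM, against 0.87 (0.72 to 1.04) in IL-6. The log2 difference was -0.77 in IL-8 and -1.09 in RM, so only RM passed the size of 1 log2 unit. With median-ratio normalization the difference in RM was -0.38. Over all scalings and pseudocounts the difference in IL-8 was -0.86 to -0.34. Among all genes tested, ITGA6 lay at percentile 22.2 in IL-8 and 18.3 in RM, so many genes were lower still.

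ITGA3, the most abundant subunit in LD, IL-6 and IL-8, had 205 TPM in LD, 228 in IL-8, 207 in IL-6, 163 in RM and 27.0 in HD. RM was the lowest of its libraries at low density, with an interval of 153 to 173 TPM against 194 to 215 TPM in LD. By TPM, ITGA3 ranked 2 of 10 in RM behind ITGA5, whose interval (154 to 176 TPM) overlapped that of ITGA3. The difference of ITGA3 from LD to RM, -0.33 log2 units, was small and became 0.40 with median-ratio normalization. From LD to HD, ITGA3 fell by 2.88 log2 units. ITGB4, the partner of alpha 6 in hemidesmosomes of epithelia, had 6 reads in LD, 13 in IL-8, 16 in IL-6, 9 in RM and 7 in HD. Its TPM values were 0.76, 2.21, 2.95, 1.18 and 4.56. ITGB4 was the only subunit past 1 log2 unit between IL-6 and LD (1.17, ratio of read shares 3.72, 1.38 to 11.6).

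ITGB1, the beta subunit that most of these alpha subunits share, had the narrowest range of TPM at low density of the 6 abundant subunits. It had 63.9 TPM in LD, 59.7 in IL-8, 60.2 in IL-6, 65.8 in RM and 25.9 in HD, and all 4 intervals at low density overlapped. The ratio of read shares between RM and LD was 1.03 (0.88 to 1.2). With median-ratio normalization ITGB1 was 0.77 log2 units higher in RM than in LD, and its range was then no longer the narrowest. From LD to HD the log2(TPM + 1) of ITGB1 fell by 1.27, and the ratio of read shares was 0.52 (0.32 to 0.79). This was the smallest decrease of the 6 abundant subunits. The genes whose profile over the 5 libraries was nearest to that of ITGB1 were GSK3A, CHPF and HNRNPAB, at Euclidean distances of 0.18, 0.19 and 0.21 log2 units after centring, among 3596 genes with at least 10 reads in every library. Of the other subunits in that set, ITGA2 was nearest (0.68) and ITGA5 farthest (1.55).

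Counted by a difference of 1 log2 unit or more, few of the 10 subunits differed between the cytokine libraries and LD, and 9 differed between HD and LD. Between IL-6 and LD, 1 subunit was higher (ITGB4) and 0 were lower, while 9.84% of all genes tested were higher and 7.47% lower. Between IL-8 and LD, 0 subunits were higher and 0 lower, against 7.99% and 16.4% of all genes. Between RM and LD, 0 subunits were higher and 2 were lower (ITGA6 and ITGB3), against 6.44% higher and 20.4% lower. With 1 subunit standing for 10% of the family, these counts are too coarse to be set apart from the shares of all genes. The median difference of the subunits was -0.24 in IL-8, 0.03 in IL-6 and -0.20 in RM, against 0.00 for all genes in each. With median-ratio normalization it was 0.20 in IL-8 and 0.46 in RM, so both signs turned.

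Between HD and LD, 3 subunits were higher (ITGA1, ITGB3 and ITGB4) and 6 lower (ITGA2, ITGA3, ITGA5, ITGA6, ITGB1 and ITGB5), with ITGAV between them at 0.09. Of all genes tested, 61.9% were higher and 17.9% lower. The median difference was -1.64 for the subunits and 1.86 for all genes, and that of the subunits stayed between -2.69 and -1.08 under every scaling, pseudocount and filter tried. Relative to the median of all genes, the 6 lower subunits were at -4.93 (ITGA5) to -3.13 (ITGB1), ITGAV at -1.78, ITGB3 at -0.84 and ITGB4 at -0.20. ITGA1 alone was higher than this median, and ITGA1 had reached 1 TPM in HD alone. The median and the 61.9% are over genes that include those entering through HD alone, which can only be higher there. The median was 2.94 with a pseudocount of 0.1, 0.85 with a pseudocount of 5 and 0.18 with quantile normalization. Distances from it therefore depend on the setting. The 6 subunits that were lower are the 6 with at least 10 reads in every library, and among the 3597 genes that meet this condition 29% were lower in HD. Between HD and RM the same 3 subunits were higher and the same 6 lower, against 67.5% and 13.6% of all genes, and against 25% lower among the well-counted genes. Between RM and LD, 1 of the 6 well-counted subunits was lower (ITGA6), against 23.4% of the well-counted genes. The higher values of ITGB3 and ITGB4 in HD rested on 6 and 7 reads, in genes that overlap another protein-coding gene in GENCODE 29, and turned to decreases with quantile normalization, at -1.23 and -0.74 log2 units from LD, and with that normalization ITGAV was at -1.80, so 1 subunit was higher and 8, ITGAV and ITGB3 among them, were lower. The comparisons with LD share that library, and those with HD share HD.

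**Figure D2:**
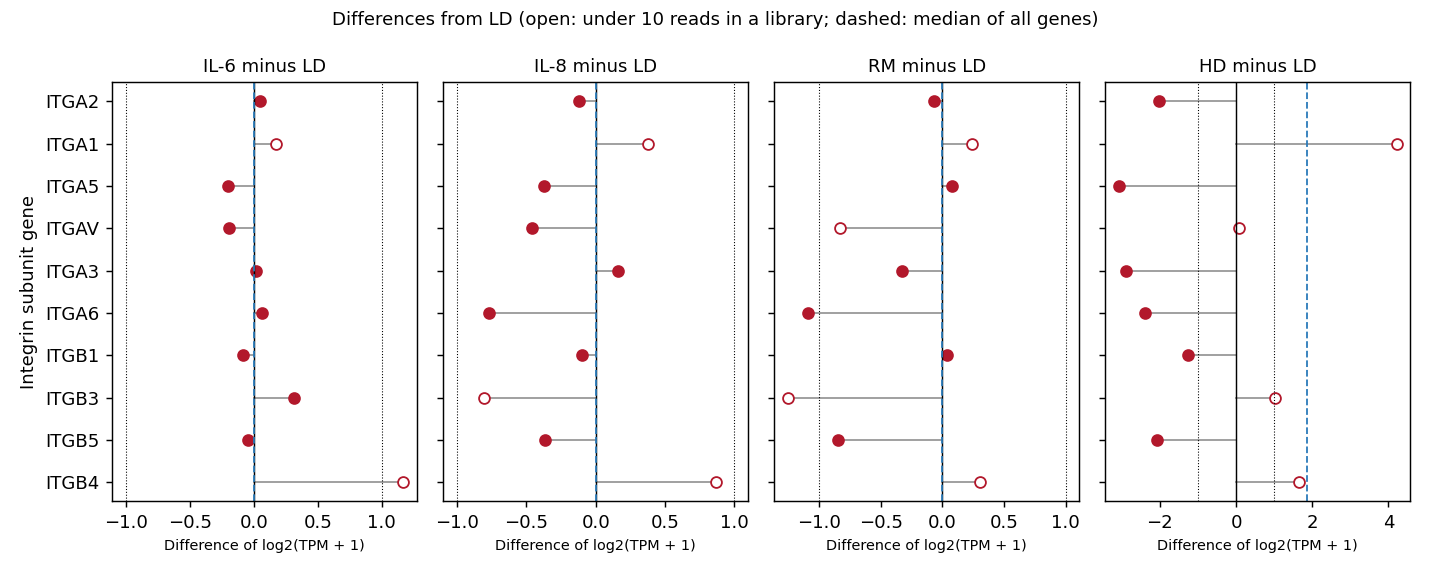
Difference of log2(TPM + 1) from LD for each integrin subunit in each other library, with open points where a library had under 10 reads, dotted lines at 1 log2 unit and a dashed line at the median of all genes tested. The axis of the HD panel is wider than the others. ITGA6 was at -1.09 in RM, and in HD the 6 filled points were all below 0 while the median of all genes was 1.86. That median includes genes that entered through HD alone, which can only be higher there.

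A share within the family does not depend on the scaling of a library. The 10 subunits were therefore also compared as percentages of their summed TPM. ITGA3 took 29.4% in LD, 36.7% in IL-8, 30.5% in IL-6, 28.4% in RM and 16.1% in HD. ITGA5 took 22.3%, 19.3%, 19.9%, 28.7% and 10.6% in the same order. On the TPM scale, RM was thus the library in which ITGA5 and ITGA3 had nearly equal shares. Counted in reads, ITGA5 took 23.2% in RM (21.8 to 24.6%) and ITGA3 31.6% (30.1 to 33.2%). Of the summed TPM, ITGA6 took 6.18% in LD, 3.98% in IL-8, 6.64% in IL-6, 3.44% in RM and 4.42% in HD. Counted in reads, the share of ITGA6 was 7.21% in LD (6.47 to 8.0%), 4.48% in IL-8 (3.77 to 5.28%) and 4.21% in RM (3.57 to 4.92%), so the intervals of IL-8 and RM lay below that of LD. The share of ITGB5 reads was 10.6% in LD (9.74 to 11.6%) and 6.63% in RM (5.84 to 7.50%).

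**Figure D3:**
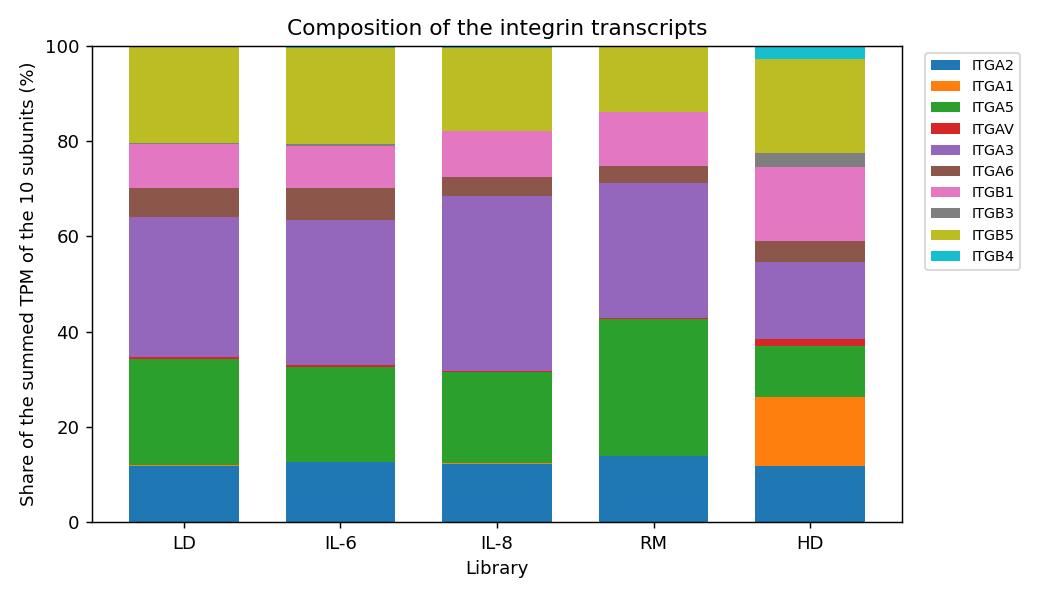
Share of each integrin subunit in the summed TPM of the 10 subunits (per cent, stacked bars) in each library, 1 library per condition. ITGA1 took 14.5% in HD and at most 0.12% in the libraries at low density, and the share of ITGB5 was lowest in RM, at 13.6%.

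Shares by ligand were taken over the alpha transcripts of the 10 subunits only. The collagen-binding ITGA1 and ITGA2 made up 17% in LD, 17% in IL-8, 18.1% in IL-6, 18.7% in RM and 44.7% in HD. On another base, the TPM of all 10 subunits, ITGA1 took 14.5% in HD and at most 0.12% at low density. ITGA2 took 11.8% on that base in HD and 11.9 to 13.8% at low density. ITGA10, a collagen-binding alpha subunit outside the 10, is not in these shares. Its level was 17 TPM in LD, 43.5 TPM in RM and 33.4 TPM in HD, so the shares do not describe all collagen-binding subunits. Laminin-binding alpha subunits made up 50.6% in LD, 56.1% in IL-8, 53.0% in IL-6, 42.6% in RM and 34.7% in HD. ITGA5 and ITGAV together made up 32.3%, 26.9%, 28.9%, 38.7% and 20.6%. Counted in reads, these 2 held 958 of 3667 alpha reads in LD and 829 of 2958 in RM, a smaller difference than in TPM. Alpha transcripts outnumbered beta transcripts by a ratio of 2.36 in LD, 2.63 in IL-8, 2.35 in IL-6, 2.95 in RM and 1.44 in HD. Relative to its partner ITGB1, ITGA6 was at -0.57 log2 units in LD, -1.27 in IL-8, -0.42 in IL-6, -1.74 in RM and -1.81 in HD. ITGA5 stayed above ITGB1 at low density, by 1.01 to 1.32 log2 units, and was 0.55 below it in HD (-0.55).

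The remaining integrin subunits were examined as a list. Of 15 listed, 14 reached 1 TPM in a library. The counts of this and the following lists stand beside 6.44% of all genes higher and 20.4% lower in RM than in LD, and 61.9% higher and 17.9% lower in HD. Among genes with at least 10 reads in every library, 23.4% were lower in RM and 29% in HD. In RM, 1 of the 14 was higher and 4 were lower. Their summed level was 47.9 TPM in LD, 37.2 in IL-8, 45.5 in IL-6, 47.8 in RM and 226 in HD. In HD, 10 of the 14 were higher than in LD and 2 lower, with a median difference of 2.67, and with quantile normalization 5 were higher and 3 lower. ITGA9, ITGAL, ITGAM, ITGAX, ITGB7 and ITGB8 reached 1 TPM in HD alone, so they could only be higher there. The count and the median were thus partly set by the filter. Of the 14, 1 (ITGA10) had at least 10 reads in both LD and HD, and it was in neither count. Named after their values were seen, the higher subunits included leukocyte subunits such as ITGAL (0 reads in LD and 21 in HD), ITGAD (2 and 21 reads) and ITGB7 (0 and 15 reads), which bind counter-receptors on other cells. ITGB2, the obligate partner of ITGAL and ITGAD and itself among the 5 leukocyte markers, had 26 reads in LD and 1 in HD. The ratio of its read shares was 0.30 with an interval that included 1 (0.0072 to 1.80), so its direction was not resolved. The leukocyte markers that were also higher in HD are given above, and their part in these values was not tested. ITGA10, a collagen-binding alpha subunit of cartilage with 17 to 43.5 TPM at low density, had 65 reads in LD, 62 in IL-8, 36 in IL-6, 116 in RM and 21 in HD. It was 1.31 log2 units higher in RM than in LD (ratio of read shares 1.86, 1.36 to 2.56), but 0.83 with CPM and 0.57 with drawn-down reads. ITGA4, which binds fibronectin and VCAM1, had 33, 6, 18, 11 and 3 reads in the same order and fell by 2.58 log2 units from LD to RM, with a ratio of read shares of 0.35 (0.16 to 0.70) and a difference of -1.11 with CPM and -4.23 with drawn-down reads.

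Among genes that regulate integrin activity, ITGB1BP1 stood out in RM. ITGB1BP1, whose product ICAP-1 binds the tail of beta 1 and holds the receptor inactive, had 92 reads in LD, 72 in IL-8, 49 in IL-6, 904 in RM and 12 in HD. Its TPM values were 32.7, 36.1, 27.6, 321 and 25.6. RM alone was high, at a ratio of read shares to LD of 10.2 (8.25 to 12.8), and the difference of 3.26 log2 units lay at percentile 99.4 of all genes. It stayed between 3.11 and 3.98 under every other scaling and pseudocount. HD did not share this value, with a ratio of read shares to LD of 1.00 (0.50 to 1.84). Of the 18 listed regulators of integrin activity and trafficking, 2 were higher in RM and 4 lower. The other gene that was higher was NUMB, an endocytic adaptor (1.42 log2 units). Among those lower with at least 10 reads were RAP1B, a small GTPase that activates integrins (-1.41), and RAB21, which carries integrins through endosomes (-1.09). With median-ratio normalization they were at -0.75 and -0.44, and NUMB was at 0.93 with CPM. In HD, 4 regulators were higher and 8 lower, with NUMB (2.80) and RAB21 (1.28, and 0.12 with quantile normalization) higher and BSG (-3.21) and SLC3A2 (-2.57), membrane partners of integrins, lower. Of the 10 regulators with at least 10 reads in both LD and HD, 2 were higher and 6 lower.

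Adaptors and kinases of adhesion sites were close to the shares of all genes in RM and had more members lower in HD. Of 26 listed, 1 was higher and 8 lower in RM than in LD, with a median of -0.39, and with median-ratio normalization 4 were higher and 5 lower. GIT1, a scaffold of adhesion turnover, was higher in RM (427 reads in LD and 914 in RM, 1.15 log2 units), and PARVB, an ILK partner, was at 0.67. NEDD9, a docking protein for focal adhesion kinase, fell by 2.54 log2 units (166 and 24 reads), and the kinase SRC fell by 2.36 (102 and 28 reads). In HD, 4 were higher and 16 lower, with a median of -1.23. Of the 19 with at least 10 reads in both LD and HD, 3 were higher and 10 lower. PXN, which encodes paxillin, fell by 3.00 log2 units and ACTN1, an actin crosslinker, fell by 2.77. ARHGEF7 (2.78) and the kindlin gene FERMT1 (2.54) were higher, on 19 and 34 reads in HD, with ARHGEF7 at 0.80 with quantile normalization.

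Genes for matrix ligands were mixed. Of 22 tested, 2 were higher and 5 lower in RM than in LD, and 4 were higher and 10 lower in HD, with medians of -0.41 and -0.61. With median-ratio normalization the counts in RM were 4 higher and 1 lower. Of the 12 ligand genes with at least 10 reads in both LD and HD, 2 were higher in HD and 5 lower. FN1, which encodes the ligand of alpha 5 beta 1, had 108 TPM in LD, 123 in IL-8, 92.5 in IL-6, 127 in RM and 53.4 in HD. Its read shares did not follow the TPM in the single-cytokine libraries, with ratios to LD of 0.73 (0.66 to 0.81) in IL-8 and 1.08 (0.98 to 1.19) in IL-6. In RM, THBS1 (-1.49) and CTGF (-1.46), secreted ligands of several integrins, were lower, and FBN1 was at 0.60 and at -0.13 with drawn-down reads. With median-ratio normalization THBS1 was at -0.81 and CTGF at -0.81, and with quantile normalization they were at -0.81 and -0.68. LAMA4, a laminin chain, was 1.69 log2 units higher in RM on the TPM scale, but its read share was not (ratio 0.82, 0.58 to 1.17), and its difference was -0.25 with CPM. In HD, TNC (2.08) and LAMA1 (1.81) were higher, close to the median of all genes and at 0.26 and 0.10 with quantile normalization, while the laminin chains LAMB3 (-2.88) and LAMC1 (-1.87) were lower. LAMB3, a chain of the laminin that alpha 3 beta 1 binds, had 1818 reads in LD and 41 in HD.

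**Figure D4:**
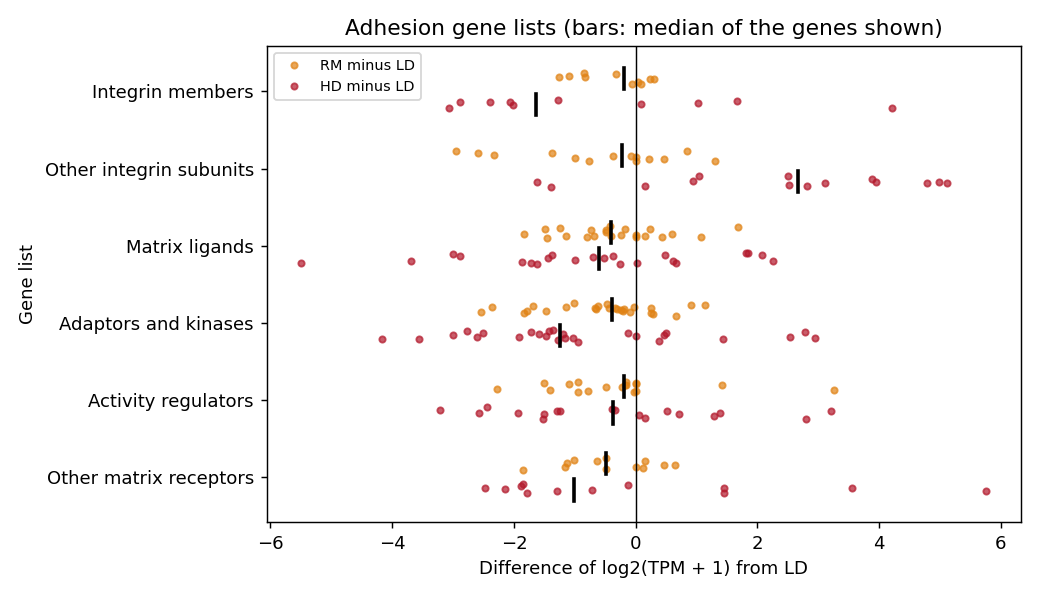
Difference of log2(TPM + 1) from LD in RM and in HD for the integrin members and 5 lists of related genes, each point a gene that reached 1 TPM in a library and each bar the median of its list. The other integrin subunits were centred at 2.67 in HD, but only 1 of these 14 had at least 10 reads in both LD and HD. The members were centred at -1.64 in HD. The point farthest right among the activity regulators in RM is ITGB1BP1 at 3.26.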

How the data were processed

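HT1080 cells in collagen were profiled by RNA-seq after poly-A priming and pooled amplification of the cDNA, with 50-base single reads. Per the submitters' processing notes, the authors aligned the reads with Bowtie2 2.3.1 to hg19 (GRCh37) and quantified genes with RSEM 1.2.25. The annotation and filters are not given in the sources used here. The authors deposited an estimated count of reads per gene in whole numbers that were not normalized. A TPM value per gene was deposited as well, which summed to 934821 to 978521 per library and was rescaled here to 1000000. The sequencing kit is not stated to mark strand, so reads of overlapping antisense genes cannot be told apart.

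Differences are of log2(TPM + 1), a scale on which changes of low genes come out too small. The 21163 genes with at least 1 TPM in a library were compared, and 1 log2 unit was counted as a change. All 10 subunits passed this filter, and 6 had at least 10 reads in every library. Intervals are Clopper-Pearson intervals of the read share, applied to the TPM, and exact conditional intervals of the ratio of read shares over all counted reads. Named genes were all 10 subunits and, from each list, the 2 largest rises and 2 largest falls from LD to RM and to HD with at least 10 reads in both libraries. PTPRC, CDH1, EPCAM, PELO and the integrin subunits ITGAL, ITGAD, ITGB2, ITGB7, ITGA9, ITGAM, ITGAX and ITGB8 were named outside this rule. GSK3A, CHPF and HNRNPAB were named for their distance to ITGB1. The subunits and lists were chosen with earlier results of these data known. Scripts were tested on simulated data. Python 3.11.15, numpy 2.4.6, pandas 2.3.3 and scipy 1.17.1 were used. Positions are from GENCODE 29 and upstream sequences from RefSeq (GRCh38.p14). Alternatives were CPM, scaling without RNA5-8S5, median-ratio and quantile normalization, reads drawn down to 449661 per library, pseudocounts of 0.1 and 5, a size of 2 log2 units, no filter and at least 10 reads in all libraries.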

Additional observations from a re-analysis of the deposited data

How the results depend on the processing

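No paired analysis was possible because each condition has 1 library. The decreases of ITGA2, ITGA3, ITGA5, ITGA6 and ITGB5 from LD to HD and the increase of ITGA1 passed 1 log2 unit under every scaling and pseudocount, and that of ITGB1 did in 7 of 8 settings (lowest size -0.93). The decrease of ITGA6 from LD to RM passed in 4 of 8 settings (-1.12 to -0.38). Of 350 subunit differences recomputed, 292 stayed within the counting interval around the reported value. The number of subunits higher in HD than in LD was 3 as reported and 1 with quantile normalization, with a pseudocount of 5 and with a size of 2 log2 units, and 0 with at least 10 reads in all libraries. Between HD and RM it was 1 with quantile normalization and a pseudocount of 5 and 0 with at least 10 reads. The number lower between HD and RM was 3 with CPM and 2 with a size of 2 log2 units. Between IL-6 and LD the number higher was 0 with quantile normalization, a pseudocount of 5, a size of 2 log2 units and at least 10 reads. Between IL-8 and LD the number higher was 1 without RNA5-8S5, with median-ratio normalization, drawn-down reads and a pseudocount of 0.1, and the number lower was 1 with drawn-down reads and a pseudocount of 0.1. Between RM and LD the number higher was 1 with drawn-down reads, and the number lower was 1 with median-ratio normalization and at least 10 reads and 0 with quantile normalization, a pseudocount of 5 and a size of 2 log2 units. The at-least-10-reads filter compares 6 subunits only. For the others the cause was not tested. Of the differences counted as changes, those of ITGB3 turned sign with quantile normalization (-1.23 from LD and -0.53 from RM to HD), as did those of ITGB4 (-0.74 and -1.40), and that of LAMA4 from LD to RM did with CPM (-0.25) and drawn-down reads (-0.57). Smaller differences turned too, such as that of ITGAV in HD (-1.80 from LD and -1.57 from RM with quantile normalization). With quantile normalization the lists between HD and LD had 2 higher and 20 lower adaptors, 0 and 17 ligands, 2 and 14 activity regulators and 2 and 8 other matrix receptors, and between RM and LD 2 higher and 1 lower activity regulators. The median of all genes between HD and LD was 0.18 with quantile normalization, 1.45 with median-ratio normalization and 1.86 as reported. The 10 subunits had 210 reads in HD, and a difference of ITGAV between HD and LD was not detectable at this depth (ratio of read shares 1.48, 0.44 to 3.91).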

Other observations

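Receptors for the matrix other than integrins were counted in the same way. Of 12 listed, 0 were higher and 4 lower in RM than in LD, with a median difference of -0.48, and 4 were higher and 6 lower in HD, with a median of -1.01. With median-ratio normalization 2 were higher and 1 lower in RM. Of the 7 with at least 10 reads in both LD and HD, 1 was higher in HD and 4 lower. CD44, the hyaluronan receptor, had 435 reads in LD, 191 in IL-8, 322 in IL-6, 186 in RM and 15 in HD, and its TPM was 70.1, 39.2, 83.0, 31.0 and 11.7. IL-8 and RM were thus the lower pair at low density, as for ITGA6. CD44 fell by 1.15 log2 units from LD to RM, with a ratio of read shares of 0.45 (0.37 to 0.53) and differences of -0.44 with median-ratio and -0.79 with quantile normalization, and by 2.48 to HD (-2.48). DAG1, which encodes dystroglycan, a laminin receptor, fell by 1.86 log2 units in RM and was at -0.98 with quantile normalization. CSPG4, a collagen-binding proteoglycan, was at 0.64 in RM and RPSA, a ribosomal protein that also binds laminin, at 0.47. In HD, the syndecan gene SDC1 fell by 2.15 log2 units and CSPG4 was 3.56 higher, on 11 reads in LD and 44 in HD.

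Among the cell type markers, VIM, which encodes vimentin, had 3676 TPM in LD, 2097 in IL-8, 3627 in IL-6, 1941 in RM and 413 in HD. From LD to RM, MMP14, a membrane collagenase, fell by 1.45 log2 units and COL1A1 fell by 1.24. With median-ratio normalization MMP14 was at -0.73 and COL1A1 at -0.58, and COL1A1 passed 1 log2 unit in 4 of 8 settings. From LD to HD, SPARC fell by 2.84 log2 units, KRT8 fell by 1.28 (-0.85 with CPM), KRT18 was 1.86 higher, at the median of all genes, and COL6A2 was 1.09 higher, below that median and past 1 log2 unit in 3 of 8 settings, while KRT19 was at -0.59 and COL6A1 at 0.28. KRT18 and KRT8 were at 0.77 and 0.52 in RM. The 5 epithelial markers summed to 637 TPM in LD, 705 in IL-8, 756 in IL-6, 905 in RM and 629 in HD, and most of this was KRT8 and KRT18. CDH1, which encodes E-cadherin, had 0 reads in LD, 4 in IL-8, 0 in IL-6, 6 in RM and 34 in HD, and EPCAM had 3 reads in HD and 0 in the others.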
